A study of Mus musculus with 12 samples.

Results

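TREM receptors (triggering receptors expressed on myeloid cells) and the proteins that carry their signal were examined in BV2 cells, an immortalized mouse microglial line, after knockdown of Anxa2 and after oxygen-glucose deprivation and reoxygenation (OGD/R), a culture model of ischemia and reperfusion. The family was taken as 9 of the 21834 protein-coding genes of the deposited count table, matched by gene name. They are the receptors Trem1, Trem2, Trem3 and Treml2, the adaptors Tyrobp and Hcst, the kinase Syk, the phospholipase Plcg2 and the phosphatase Inpp5d. The genes were chosen by their role in this pathway with fitted changes of these same 12 libraries already in view, among them those of Trem1, so their values are given as a description and no p-value is attached to them.

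The libraries formed 4 groups of 3, named here as in the sample names. BV2 cells carrying a control shRNA were left untreated (shCtrl-CTRL) or taken through OGD/R (shCtrl-OGDR), and BV2 cells carrying an shRNA against Anxa2 were left untreated (shAnxa2-CTRL) or taken through OGD/R (shAnxa2-OGDR). All 4 groups carried a lentiviral pLKO.1 shRNA vector and had passed puromycin selection, and each line rested on a single hairpin, so a hairpin and the loss of Anxa2 cannot be told apart. The labels give 4 h of deprivation without glucose at low oxygen and 12 h of reoxygenation in normal medium, whereas the study's methods give a longer reoxygenation. The study describes the 3 libraries of a group as biological replicates.

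The description that follows is of TREM1, TREM2 and TREM3 and leaves out the TREM-like receptor Treml2. These receptors bind ligands outside the cell, among them lipids and lipoproteins in the case of TREM2. They have almost no signalling part of their own inside the cell. They pair with the adaptor DAP12, the product of Tyrobp. The immunoreceptor tyrosine-based activation motif (ITAM) of DAP12 recruits the kinase Syk once phosphorylated. Pairing with DAP10, the product of Hcst, which recruits phosphoinositide 3-kinase, is described for TREM2. Syk then activates phospholipase C gamma, and SHIP1, the product of Inpp5d, removes the lipid signal that phosphoinositide 3-kinase makes. In microglia TREM2 is known for lipid sensing and phagocytosis, and in neutrophils and monocytes TREM1 is known for amplifying inflammatory responses.

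The line labels were checked by Anxa2, which lay at 40.4 ± 4.86 CPM (mean ± SD, n = 3) in shAnxa2-CTRL against 171.6 ± 6.36 CPM in shCtrl-CTRL, and at 19.6 ± 1.26 CPM in shAnxa2-OGDR against 278.8 ± 24.3 CPM in shCtrl-OGDR. CPM are counts scaled to the library size with edgeR's TMM factors. With OGD/R, Anxa2 rose in shCtrl cells (log2 fold change 0.70, SE 0.0643) and fell in shAnxa2 cells (−1.04, SE 0.0827). No gene checks the treatment labels as the target of the shRNA checks the line labels. The labels' cell type field follows the treatment instead of the shRNA and so goes against the sample names, by which the groups were formed. Library totals ran from 19521877 to 27288843 counts. Of the 9 microglial markers, Csf1r, Cd68 and Ptprc were high (at least 253.8 CPM in every library). Itgam was lower, at 8.29 to 19.5 CPM, as was Aif1, at 1.99 to 6.20 CPM. Cx3cr1, P2ry12 and Tmem119 stayed at or below 10.7 CPM, and Sall1 had 0 counts in all 12 libraries. Of the 4 neutrophil markers, Ly6g and S100a9 also had 0 counts in all 12 libraries. Summed over the libraries, S100a8 had 14 counts and Mpo had 25.

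A gene is called here when its adjusted p was under 0.05 in the quasi-likelihood test of edgeR (Benjamini-Hochberg adjusted), fitted over the 11626 genes with at least 0.5 CPM in at least 3 libraries. All 9 family members passed that filter. The comparisons within and between lines share libraries, so their values for a gene are set side by side and are not independent. The OGD/R changes of the 2 lines share none. Of 5240 genes called after OGD/R in both lines, 5165 (98.6%) moved in opposite directions, and all 5 family members called in both lines did so as well. An exchange of the CTRL and OGDR labels within 1 line could not be checked, and it would turn every OGD/R direction given for that line and exchange the untreated and OGD/R levels there.

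Promoter sequences are shown for Trem1 and Trem2, the receptors that shared directions in every comparison while differing in size, with the letters of the PU.1 core GAGGAA (either strand, so TTCCTC on the strand shown) in capitals. PU.1 is the defining transcription factor of the myeloid lineage. The windows hold 250 bases before and 50 bases after the start site in RefSeq (GRCm38.p6), which is not the build of the count table, at chr17:48232489-48232788 and chr17:48346151-48346450, both on the plus strand.
Trem1: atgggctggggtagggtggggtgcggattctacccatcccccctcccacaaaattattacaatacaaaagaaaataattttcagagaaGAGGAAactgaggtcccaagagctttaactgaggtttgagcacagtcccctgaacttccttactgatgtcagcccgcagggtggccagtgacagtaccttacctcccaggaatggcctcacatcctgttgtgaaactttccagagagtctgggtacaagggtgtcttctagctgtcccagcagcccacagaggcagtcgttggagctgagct
Trem2: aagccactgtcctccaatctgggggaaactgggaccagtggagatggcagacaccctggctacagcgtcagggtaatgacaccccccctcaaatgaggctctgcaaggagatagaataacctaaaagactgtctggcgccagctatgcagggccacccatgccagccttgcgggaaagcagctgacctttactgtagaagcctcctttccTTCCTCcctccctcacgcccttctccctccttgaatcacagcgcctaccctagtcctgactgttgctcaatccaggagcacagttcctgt
Counted from the start site, the capitals begin at position −162 in Trem1 and at position −40 in Trem2. The core was found in 28.3% of 32851 mouse promoter windows of this length. The AP-1 letters TGANTCA were found in the Trem2 window, from position −9, and in 7.81% of all windows, and were not in the Trem1 window. Neither window held the hypoxia response element core ACGTG (19.6% of all windows) or the NF-kB motif, GGGA and CC with 4 bases between them (20.7%), searched on both strands. Among the other windows found for family members, those of Inpp5d, Hcst, Plcg2 and Syk (with 2 start sites), the PU.1 core was in that of Inpp5d and in 1 of those of Syk.

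Calls were common in these libraries, so the members' counts are set beside those of all genes. In shCtrl cells after OGD/R, 3 of 9 were called higher and 4 lower, where 32.4% of all genes tested were called higher and 31.0% lower, and the libraries of 8 members did not overlap between the groups, as for 68.0% of all genes. In shAnxa2 cells after OGD/R, 3 were called higher and 3 lower (28.2% and 26.8% of all genes), with 7 not overlapping (58.9%). Between the untreated lines, 3 were called higher and 5 lower in shAnxa2 cells (29.5% and 29.7%), with 8 not overlapping (63.6%). Between the lines after OGD/R, 3 were called higher and 2 lower in shAnxa2 cells (33.8% and 34.2%), with 5 not overlapping (69.9%). For the interaction, the change after OGD/R in shAnxa2 cells minus that in shCtrl cells, 4 were called higher and 3 lower (34.9% and 35.1%). The median size of a member's log2 fold change was 0.25 in shCtrl cells after OGD/R against 0.30 over all genes, and 0.31 in shAnxa2 cells against 0.24. The members differed widely in how far they ranged. The highest group mean was 20.4 times the lowest for Trem1, a ratio larger than that of 99.8% of genes tested, and 3.69 times for Trem3 (larger than 96.9%), while the other 7 members lay between 1.13 and 1.46 times, around the median of 1.40 over all genes.

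**Figure D1:**
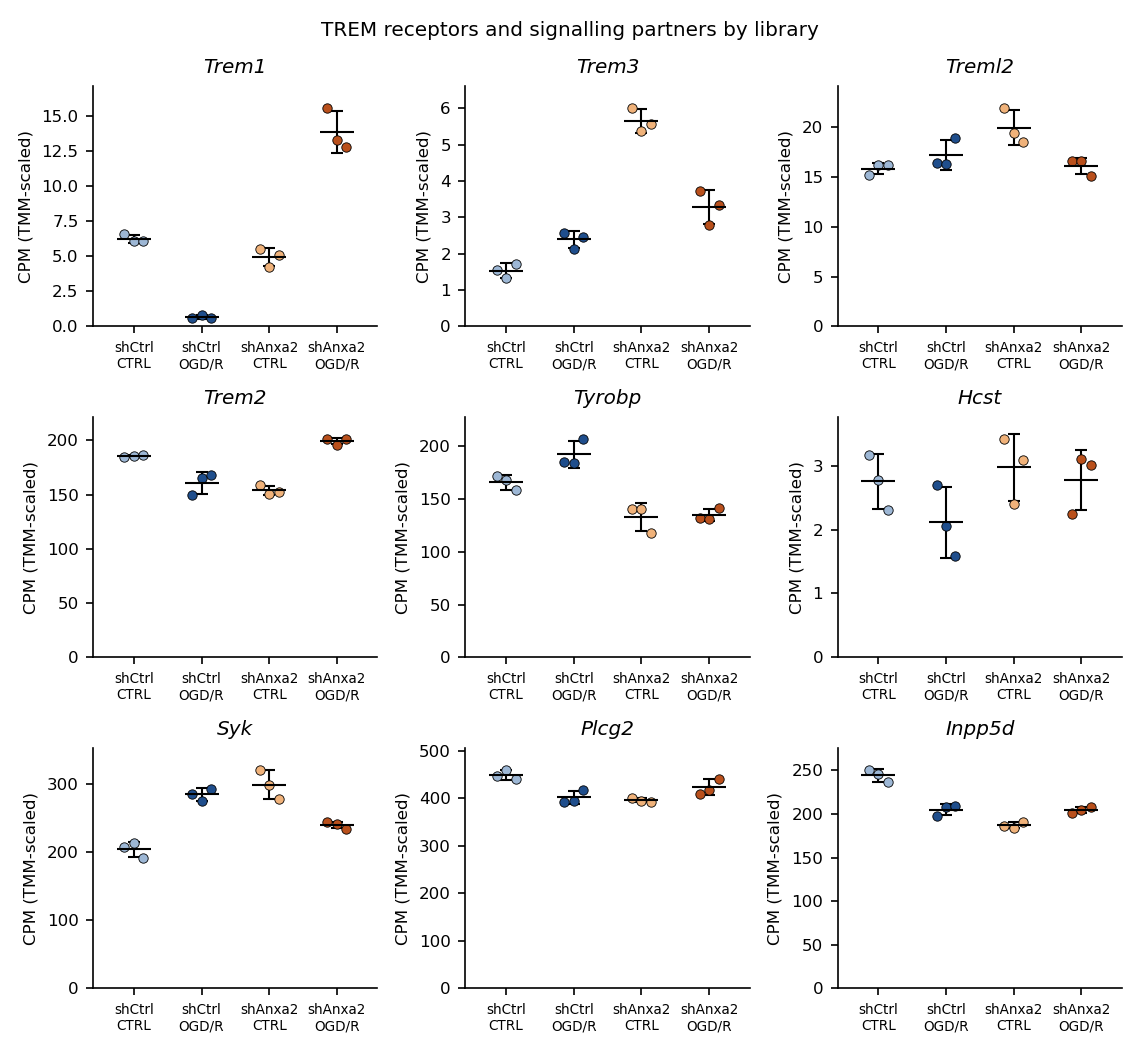
Level of each gene in CPM (linear axis from 0, TMM-scaled) in the 3 libraries (points) of each of the 4 groups, with bars for the mean ± SD (n = 3). Trem1 was nearly absent in shCtrl-OGDR (mean 0.68 CPM) and highest in shAnxa2-OGDR (13.9 CPM), and Trem3 was highest in shAnxa2-CTRL (5.65 CPM).

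Trem1 (ENSMUSG00000042265, chr17:48539796-48553952 in mm39, plus strand) had the widest range. In shCtrl cells its counts were 157, 165 and 165 untreated and 15, 22 and 12 after OGD/R. In shAnxa2 cells they were 112, 88 and 128 untreated and 305, 334 and 263 after OGD/R. No group overlapped another. In rising order the means were 0.68 ± 0.139 CPM (SD, n = 3) in shCtrl-OGDR, 4.93 ± 0.635 in shAnxa2-CTRL, 6.22 ± 0.290 in shCtrl-CTRL and 13.9 ± 1.49 in shAnxa2-OGDR. Through OGD/R, Trem1 fell 8.99-fold in shCtrl cells (log2 fold change −3.17, SE 0.192) and rose 2.80-fold in shAnxa2 cells (1.49, SE 0.127). After OGD/R it was thus higher in the shAnxa2 line by a log2 fold change of 4.32 (SE 0.176). Untreated shAnxa2 cells were called lower by 1.26-fold (−0.33, SE 0.135). That small difference was not called by DESeq2 (−0.33), without the filter on low counts (−0.32), or without shCtrl-CTRL replicate 1 (−0.30), 2 (−0.35) or 3 (−0.35) or shAnxa2-CTRL replicate 2 (−0.24) or 3 (−0.36). In bulk RNA, a change in the share of cells that express a gene and a change in RNA per cell cannot be told apart.

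Trem3 (ENSMUSG00000041754, chr17:48554805-48565869, plus strand) encodes a further activating receptor of mouse macrophages and starts 852 bases beyond the end of Trem1. It moved against Trem1 in each comparison but that of the lines after OGD/R. Its counts were 37, 36 and 47 in shCtrl-CTRL, 66, 56 and 48 in shCtrl-OGDR, 123, 112 and 140 in shAnxa2-CTRL and 73, 70 and 69 in shAnxa2-OGDR. Scaled to library size, the 4 groups did not overlap, at 1.53 ± 0.205 CPM in shCtrl-CTRL, 2.39 ± 0.229 in shCtrl-OGDR, 3.28 ± 0.474 in shAnxa2-OGDR and 5.65 ± 0.323 in shAnxa2-CTRL (SD, n = 3). Trem3 was 3.68-fold higher in untreated shAnxa2 cells than in untreated shCtrl cells (log2 fold change 1.88, SE 0.174). After OGD/R it rose 1.56-fold in shCtrl cells (0.64, SE 0.195) and fell 1.73-fold in shAnxa2 cells (−0.79, SE 0.159). The remaining difference between the lines after OGD/R, 1.36-fold (0.45, SE 0.178), was not called without the filter on low counts (0.43) or without shCtrl-OGDR replicate 2 (0.37), shAnxa2-OGDR replicate 1 (0.35) or shAnxa2-OGDR replicate 3 (0.42).

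Trem2 (ENSMUSG00000023992, chr17:48653429-48661175, plus strand), the lipid-sensing receptor, was the most abundant of the 4 receptors and moved in the directions of Trem1 by far smaller steps. It lay at 185, 186 and 187 CPM in shCtrl-CTRL, 149, 166 and 168 CPM in shCtrl-OGDR, 159, 151 and 152 CPM in shAnxa2-CTRL and 201, 196 and 201 CPM in shAnxa2-OGDR. The shAnxa2-CTRL and shCtrl-OGDR libraries overlapped, and the other groups stood apart. After OGD/R Trem2 fell 1.15-fold in shCtrl cells (log2 fold change −0.21, SE 0.0482) and rose 1.30-fold in shAnxa2 cells (0.37, SE 0.0484). It was 1.21-fold lower in untreated shAnxa2 cells than in untreated shCtrl cells (−0.27, SE 0.0483) and 1.24-fold higher after OGD/R (0.31, SE 0.0483).

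Treml2 (ENSMUSG00000071068, chr17:48606526-48619561, plus strand), a TREM-like receptor of the same cluster, stayed between 15.1 and 21.9 CPM in all 12 libraries, and neighbouring groups in the order of means overlapped throughout. In shAnxa2 cells it fell 1.24-fold after OGD/R (log2 fold change −0.31, SE 0.0888), from 21.9, 19.4 and 18.5 CPM to 16.6, 16.6 and 15.1 CPM. It was 1.26-fold higher in untreated shAnxa2 cells than in untreated shCtrl cells (0.33, SE 0.0873). Its change in shCtrl cells was 0.11 (approximate 95% interval −0.06 to 0.28) and the difference between the lines after OGD/R was −0.09 (−0.27 to 0.08), and neither was called.

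**Figure D2:**
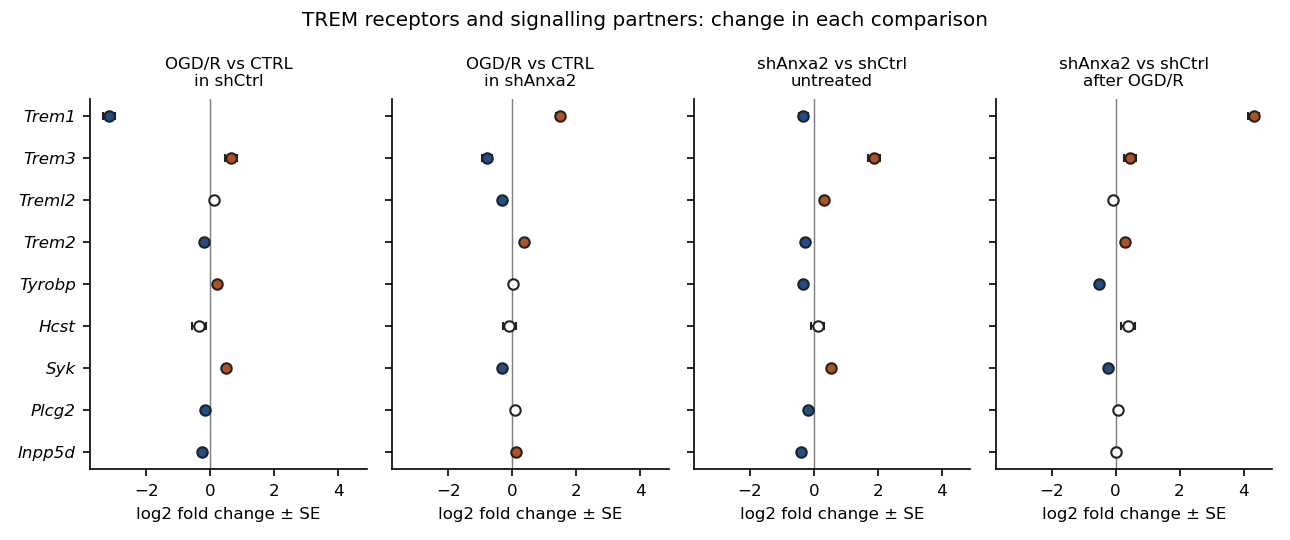
Log2 fold change ± SE of each gene in 4 comparisons (one panel each, shared axis), filled orange where called higher, filled blue where called lower and open where not called. Trem1 reached −3.17 in shCtrl cells after OGD/R and 4.32 between the lines after OGD/R, while the changes of the adaptors and signalling enzymes stayed between −0.51 and 0.55.

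The adaptor Tyrobp (ENSMUSG00000030579, chr7:30113185-30117010, plus strand) followed the line more than the treatment. It lay at 172, 168 and 158 CPM in shCtrl-CTRL and 185, 184 and 207 CPM in shCtrl-OGDR, against 140.2, 140.3 and 117 CPM in shAnxa2-CTRL and 132, 131 and 142 CPM in shAnxa2-OGDR. Every shCtrl library lay above every shAnxa2 library. Tyrobp was 1.25-fold lower in shAnxa2 cells without OGD/R (log2 fold change −0.32, SE 0.0620) and 1.42-fold lower after it (−0.51, SE 0.0620). OGD/R raised it 1.16-fold in shCtrl cells (0.21, SE 0.0612), and in shAnxa2 cells the change was 0.03 (approximate 95% interval −0.10 to 0.15) and not called. The interaction was −0.18 and not called, but it was called without the filter on low counts (−0.21), with a filter of 1 CPM (−0.20), and without shCtrl-OGDR replicate 1 (−0.23) or 2 (−0.22), shAnxa2-CTRL replicate 3 (−0.27) or shAnxa2-OGDR replicate 3 (−0.23).

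The adaptor Hcst (ENSMUSG00000064109, chr7:30117137-30119279, minus strand) lies 126 bases beyond Tyrobp with the 3′ ends of the genes facing each other. It was low, with 31 to 78 counts per library and group means of 2.12 to 2.97 CPM, and all groups overlapped their neighbours in the order of means. It was not called in any comparison. Its approximate 95% intervals were wide, from −0.77 to 0.06 for OGD/R in shCtrl cells and from −0.04 to 0.81 between the lines after OGD/R, and included 0. Without shCtrl-OGDR replicate 1 both were called, at −0.56 and 0.59.

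Syk (ENSMUSG00000021457, chr13:52737209-52802828, plus strand), the kinase that docks on phosphorylated ITAMs, moved against Trem1 and Trem2. It lay at 207, 213 and 191 CPM in shCtrl-CTRL, 285, 275 and 293 CPM in shCtrl-OGDR, 320.3, 297 and 278 CPM in shAnxa2-CTRL and 244, 241 and 234 CPM in shAnxa2-OGDR. The shCtrl-OGDR and shAnxa2-CTRL libraries overlapped at the top of this order, and the other groups stood apart. After OGD/R Syk rose 1.39-fold in shCtrl cells (log2 fold change 0.48, SE 0.0540) and fell 1.25-fold in shAnxa2 cells (−0.32, SE 0.0540). It was 1.46-fold higher in untreated shAnxa2 cells than in untreated shCtrl cells (0.55, SE 0.0540) and 1.19-fold lower after OGD/R (−0.25, SE 0.0539).

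Plcg2 (ENSMUSG00000034330, chr8:118225030-118361881, plus strand), which cleaves a membrane lipid to raise calcium, varied least, from 393 to 459 CPM over the 12 libraries. It fell 1.12-fold in shCtrl cells after OGD/R (log2 fold change −0.16, SE 0.0460) and was 1.13-fold lower in untreated shAnxa2 cells than in untreated shCtrl cells (−0.18, SE 0.0461). Its change in shAnxa2 cells was 0.10 (approximate 95% interval 0.01 to 0.19) and the difference between the lines after OGD/R 0.07 (−0.02 to 0.17), and neither was called.

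Inpp5d (ENSMUSG00000026288, chr1:87548034-87648229, plus strand), the inhibitor among the 9, lay at 251, 245 and 237 CPM in shCtrl-CTRL, above all other libraries, which held 184 to 210 CPM. It fell 1.19-fold after OGD/R in shCtrl cells (log2 fold change −0.25, SE 0.0450) and was 1.31-fold lower in untreated shAnxa2 cells than in untreated shCtrl cells (−0.39, SE 0.0452). After OGD/R the lines differed by −0.00 (approximate 95% interval −0.09 to 0.09), which was not called. The rise in shAnxa2 cells after OGD/R, 0.13 (SE 0.0454), was not called without the filter on low counts (0.10) or without shAnxa2-CTRL replicate 2 (0.12) or shAnxa2-OGDR replicate 3 (0.11).

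Compared per kilobase of exon (all exons annotated for a gene in GENCODE M21, merged), the adaptor Tyrobp exceeded the receptors of the family. The merged length, 4946 bases for Trem2 and 667 for Tyrobp, can exceed that of the RNA made, so the order depends on the annotation. In shCtrl-CTRL cells Tyrobp reached 249 CPM per kb, above 98.7% of the genes tested, followed by Plcg2 at 104, Trem2 at 37.6, Inpp5d at 32.1 and Syk at 21.8 CPM per kb. Hcst (3.82), Treml2 (3.22), Trem1 (2.08) and Trem3 (1.54 CPM per kb) lay lower than these 5. In shCtrl-OGDR cells Trem1 was at 0.227 CPM per kb, above 6.03% of the genes tested.

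The Trem genes lie within 121.4 kb of chromosome 17, and 12 other genes start within 250 kb of that span, of which 5 passed the filter. Treml4, a TREM-like receptor between Trem3 and Treml2, and Nfya, a subunit of the CCAAT-binding factor NF-Y, were called in each of the comparisons, while Treml1, Oard1 and B430306N03Rik were called in none. Treml4 had 27 to 33 counts in shCtrl-CTRL, 9 to 21 in shCtrl-OGDR, 10 to 24 in shAnxa2-CTRL and 38 to 45 in shAnxa2-OGDR. After OGD/R it fell in shCtrl cells (log2 fold change −0.91, SE 0.318, adjusted p = 0.0151, edgeR, lower in all 3 libraries) and rose in shAnxa2 cells (1.47, SE 0.301, adjusted p = 0.000227, edgeR, higher in all 3). It was lower in untreated shAnxa2 cells (−0.78, SE 0.317, adjusted p = 0.0366, edgeR) and higher in shAnxa2 cells after OGD/R (1.59, SE 0.302, adjusted p = 5.59e-05, edgeR). Treml4 was thus called in the directions of Trem1, with Trem3 between them called in the opposite direction in 3 of these 4 comparisons.

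The fall of Treml4 in shCtrl cells was not called without shCtrl-CTRL replicate 1 (−0.79) or shCtrl-OGDR replicate 2 (−0.81) or 3 (−0.78). Its difference between the untreated lines was not called without shCtrl-CTRL replicate 1 (−0.66) or 2 (−0.80) or shAnxa2-CTRL replicate 1 (−0.66) or 2 (−0.61). Nfya fell in shCtrl cells (−0.25, SE 0.0633, adjusted p = 0.00127, edgeR), with overlapping libraries, and rose in shAnxa2 cells (0.35, SE 0.0636, adjusted p = 5.87e-05, edgeR). Oard1, which starts 107 bases from the start of Nfya on the other strand, changed by 0.06 (SE 0.0890) and 0.00 (SE 0.0912).

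The rest of the pathway was described by 7 lists holding 103 genes, of which 94 were tested. In shCtrl cells after OGD/R, 41 of them (43.6%) were called higher and 24 (25.5%) lower, against 32.4% and 31.0% of all genes tested. In shAnxa2 cells 27 (28.7%) were higher and 36 (38.3%) lower, against 28.2% and 26.8% of all genes. Between the untreated lines 34 (36.2%) were higher and 31 (33.0%) lower in shAnxa2 cells, against 29.5% and 29.7%. After OGD/R 26 (27.7%) were higher and 49 (52.1%) lower in the shAnxa2 line, against 33.8% and 34.2%. The counts of the single lists are to be read against the same shares of all genes. The genes named from each list were picked from those with the largest called interactions. Opposite changes of a named gene in the lines thus follow in part from that choice.

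Of the 9 tested receptors that couple to DAP12 or DAP10, 1 was called higher and 5 lower in shCtrl cells after OGD/R, with a median log2 fold change of −0.49 against 0.00 over all genes. In shAnxa2 cells 2 were called higher and 3 lower. Clec5a, a myeloid lectin receptor that signals through DAP12, fell from 62.2 ± 1.02 to 34.6 ± 3.67 CPM (SD, n = 3) in shCtrl cells and rose from 64.9 ± 1.46 to 84.0 ± 9.85 CPM in shAnxa2 cells. Pilrb1, an activating paired receptor, fell from 2.36 ± 0.36 to 1.03 ± 0.049 CPM in shCtrl cells. The shAnxa2 line exceeded the shCtrl line by 1.02 untreated (log2, SE 0.180) and by 2.55 after OGD/R (SE 0.206). In shAnxa2 cells the change of Pilrb1 after OGD/R, 0.34 (SE 0.162), was not called, but it was called without shAnxa2-OGDR replicate 3 (0.48). Cd200r4 moved against Clec5a, with 0.39 (SE 0.0802) in shCtrl cells and −0.45 (SE 0.0827) in shAnxa2 cells.

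Of the 27 tested kinases and adaptors that act next to the ITAM, 17 were called higher and 3 lower in shCtrl cells after OGD/R (median log2 fold change 0.22 against 0.00 over all genes), and 6 higher and 14 lower in shAnxa2 cells (median −0.15). Between the lines after OGD/R, 5 were higher and 18 lower in shAnxa2 cells (median −0.21). Src rose by 1.07 (log2, SE 0.0777) in shCtrl cells and fell by 0.69 (SE 0.0735) in shAnxa2 cells. The adaptors Lcp2 (SLP-76), with 0.51 and −0.91, and Gab2, with 0.75 and −0.66, changed in the same directions as Src.

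Among the 15 downstream effectors, 8 were called higher and 2 lower in shCtrl cells after OGD/R, and 1 higher and 7 lower in shAnxa2 cells. Of all genes tested, 32.4% were called higher and 31.0% lower in shCtrl cells, and 28.2% and 26.8% in shAnxa2 cells. The median log2 fold change of the 15 genes was 0.19 in shCtrl and −0.07 in shAnxa2 cells, against 0.00 over all genes in both. Mapk3, which encodes the kinase ERK1, rose from 26.2 ± 0.64 to 57.2 ± 8.07 CPM in shCtrl cells and fell from 39.9 ± 2.43 to 23.5 ± 2.84 CPM in shAnxa2 cells. The calcium channel gene Itpr2 and the kinase gene Prkcd likewise rose in shCtrl cells, by 0.84 and 0.54 on the log2 scale, and fell in shAnxa2 cells.

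The 18 inhibitors of ITAM signalling were mixed, with 5 called higher and 7 lower in shCtrl cells after OGD/R and 7 higher and 3 lower in shAnxa2 cells. These counts lay near the shares of all genes in shCtrl cells (32.4% higher and 31.0% lower), and the shares in shAnxa2 cells were 28.2% and 26.8%. The median log2 fold change of the 18 genes was −0.09 in shCtrl and 0.00 in shAnxa2 cells. The adaptor Dok2, which dampens tyrosine kinase signals, fell from 30.2 ± 2.84 to 6.83 ± 0.463 CPM in shCtrl cells and rose from 6.52 ± 0.388 to 14.5 ± 0.292 CPM in shAnxa2 cells. Cd33, an inhibitory sialic acid receptor of myeloid cells, did the reverse, from 54.9 ± 2.69 to 120.3 ± 5.43 CPM in shCtrl cells and from 102 ± 8.31 to 56.6 ± 1.62 CPM in shAnxa2 cells. Csk, which switches off Src family kinases, fell in shCtrl cells (−0.32, SE 0.0578) and rose in shAnxa2 cells (0.48, SE 0.0589).

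**Figure D3:**
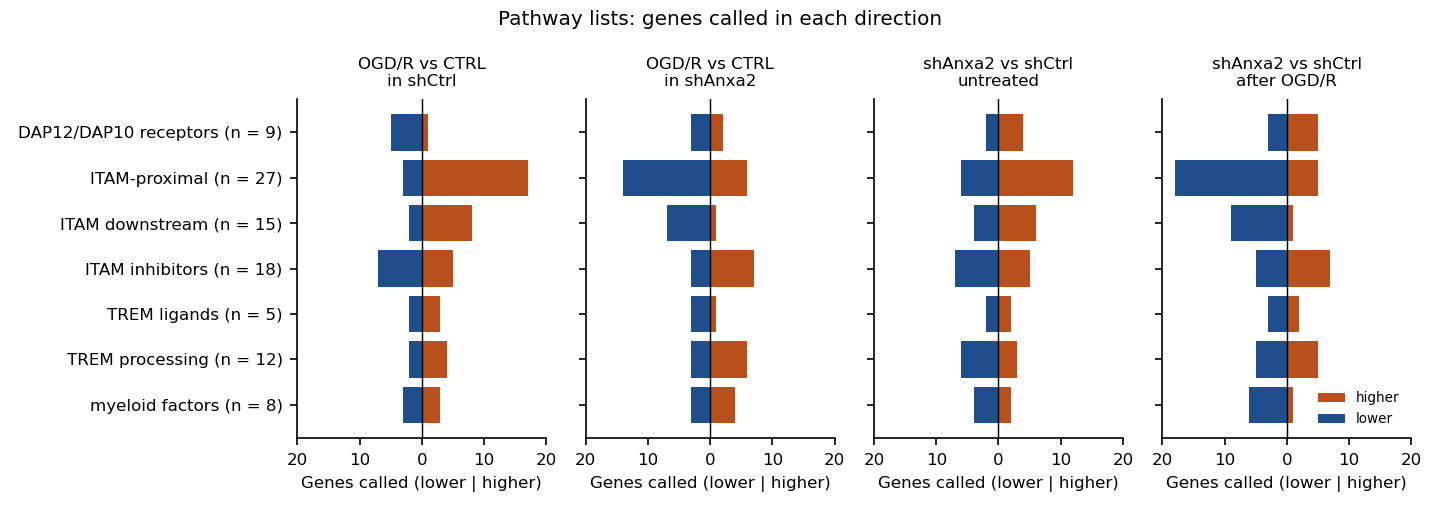
Number of genes called higher (orange, right) and lower (blue, left) in each of the 7 pathway lists, in 4 comparisons, with the number tested in brackets. Of the 27 ITAM-proximal genes, 17 were higher and 3 lower in shCtrl cells after OGD/R, and 5 higher and 18 lower in shAnxa2 against shCtrl cells after OGD/R.

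Of 5 tested ligands and ligand candidates, 3 were called higher and 2 lower in shCtrl cells after OGD/R. Apoe, a lipoprotein ligand of TREM2, rose from 1079 ± 86.6 to 1931 ± 84.7 CPM in shCtrl cells, and after OGD/R the shAnxa2 line stood at −1.02 against the shCtrl line (log2, SE 0.0709). Apoe, Trem2 and Tyrobp are also known as genes of disease-associated microglia, and after OGD/R in shCtrl cells Apoe and Tyrobp rose while Trem2 fell. Lgals3, a galectin, fell in shCtrl cells (−0.24, SE 0.0475) and rose in shAnxa2 cells (0.20, SE 0.0475). Among 12 genes of receptor shedding and processing, 4 were called higher and 2 lower in shCtrl cells. The sheddase gene Adam17 rose by 0.32 (SE 0.0482) and Ms4a7 rose by 1.51 (SE 0.117) in those cells.

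Of 8 myeloid transcription factors, 3 were called higher and 3 lower in shCtrl cells after OGD/R, and 1 higher and 6 lower in shAnxa2 against shCtrl cells after OGD/R. Of all genes, 32.4% and 31.0% were called in the first comparison, near the counts of this list, and 33.8% and 34.2% in the second. The median log2 fold change of the 8 genes was −0.02 in the first and −0.41 in the second. Cebpa was lower in untreated shAnxa2 cells than in untreated shCtrl cells, at 6.25 ± 0.231 against 28.6 ± 1.84 CPM. Runx1 moved in the directions of Trem1, with −0.60 (SE 0.0679) in shCtrl and 0.43 (SE 0.0688) in shAnxa2 cells. Cebpb and Irf8 moved in the directions of Syk, with 0.65 and 0.52 in shCtrl and −0.27 and −0.25 in shAnxa2 cells.

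The genes whose log2 CPM was most like that of a family member were ranked by Pearson's r over the 12 libraries, which share the 4 group means, so r is a description only. For Trem1 these were Klhdc4 (0.994), Myo19 (0.993), Sdc1 (0.992), Odc1 (0.991) and Rad23b (0.989). Their changes were smaller, with Odc1 at −1.19 in shCtrl cells and 0.60 in shAnxa2 cells after OGD/R. For Trem2 they were Sf3a1 (0.975), Cdc37 (0.967), Clta (0.965), Ifi30 (0.960) and Fam83d (0.957), and for Tyrobp Bmpr2 (0.958), Jmy (0.958), Cd99l2 (0.954), AB124611 (0.953) and Deptor (0.950). Ranked by Spearman's rho, 0 of the 5 named for Trem1 were again among the first 5, against 3 for Trem2 and 2 for Tyrobp.

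Markers of other cell types were low in these cultures of the BV2 line, and the cause of their differences between groups was not tested. The 4 neutrophil markers summed to 0.125 to 0.330 CPM in shCtrl-CTRL, 0.0382 to 0.102 in shCtrl-OGDR, 0 to 0.196 in shAnxa2-CTRL and 0.0397 to 0.388 in shAnxa2-OGDR, below every value of Trem1. The 3 endothelial markers, of which Cldn5 was at 0 in 4 libraries, moved in part with Trem1, at 1.58 to 1.72 CPM in shCtrl-CTRL, 0.458 to 0.978 in shCtrl-OGDR, 0.587 to 1.23 in shAnxa2-CTRL and 1.67 to 2.09 in shAnxa2-OGDR. The 3 oligodendrocyte markers moved in part with Syk, at 4.37 to 5.42 CPM in shCtrl-CTRL, 5.63 to 6.20 in shCtrl-OGDR, 5.34 to 5.96 in shAnxa2-CTRL and 3.97 to 4.17 in shAnxa2-OGDR, with Mog at 0 in all 12 libraries. The 4 T and B cell markers reached 1.64 to 2.19 CPM in shCtrl-OGDR and at most 1.20 CPM in the other groups, with Cd3e at 0 in all 12 libraries. Astrocyte and neuron markers summed to at most 0.969 and 0.918 CPM.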

How the data were processed

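RNA of 12 BV2 libraries, 3 in each of 4 groups, was sequenced. The authors deposited raw counts of reads per gene for 21834 protein-coding genes, of which 5636 had 0 counts in every library and 14 had no name. The submitters' processing notes name HISAT2 2.0.4 and the build mm39, and the library kit is not stated to keep strand. A further 12 deposited columns give a normalized signal, in which each library's counts were divided by its size factor, and were left out here. Groups were taken from the sample names. Totals ran from 19521877 to 27288843 counts (median 24531757). Replicates differed beyond counting error (chi-square per gene 3.89 to 12.7), and each library was kept as its own sample.

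Counts were tested with edgeR 4.0.16 (R 4.3.3): TMM, the 11626 genes that reached 0.5 CPM in 3 or more libraries, 1 quasi-likelihood model over 4 groups, Benjamini-Hochberg adjustment, called at an adjusted p under 0.05. The SE is the fold change divided by the square root of F, and intervals are approximate. Common biological variation was 5.35%. The steps were tested on simulated counts. The 9 genes, the pathway lists and the markers were chosen with earlier results of these data known. Named genes are the 9, Anxa2, up to 4 genes per list with the largest called interaction and a mean of at least 1 CPM, the genes starting within 250 kb of the Trem genes, and the 5 genes most like Trem1, Trem2 and Tyrobp. Some genes that this rule selects are not reported here. The alternatives were other size factors, filters, a fold limit of 1.5, DESeq2 1.42.0, the replicate number as a block, fits of only the groups compared, other measures of likeness, and leaving out each library. The labels name no batch, and an effect of batch that runs with group cannot be told apart from one of group.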

Additional observations from a re-analysis of the deposited data

Results flagged for a closer look

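The change after OGD/R differed between the lines, as an interaction term called in edgeR's quasi-likelihood fit across all genes, for 7 of the 9 genes. As the change in shAnxa2 cells minus that in shCtrl cells on the log2 scale, it was 4.65 for Trem1 (SE 0.230), 0.58 for Trem2 (SE 0.0683), −1.43 for Trem3 (SE 0.252), −0.42 for Treml2 (SE 0.125), −0.80 for Syk (SE 0.0763), 0.26 for Plcg2 (SE 0.0652) and 0.38 for Inpp5d (SE 0.0640). Called interactions were common, at 34.9% of all genes upward and 35.1% downward, and the genes were chosen with these results in view, so the values are a description.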

How the results depend on the processing

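With a fold of at least 1.5 added to the call, fewer genes were called, by construction: 2334 after OGD/R in shCtrl, 1401 in shAnxa2, 1812 between untreated lines, 3053 between lines after OGD/R and 4859 for the interaction. Of the 9 genes, 2, 2, 1, 1 and 3 were then called in these comparisons, of the listed pathway genes 23, 12, 20, 26 and 37, and near the Trem genes 1 in each comparison but the interaction. Leaving out 1 library gave 6807 to 7507 genes called after OGD/R in shCtrl, 5774 to 6380 in shAnxa2, 6342 to 7002 between untreated lines and 7414 to 7925 after OGD/R. Of the 9 genes, 7 to 8, 5 to 6, 7 to 8 and 4 to 6 were then called. Near the Trem genes, 1 to 2 were called in shCtrl and 0 to 2 between untreated lines, with 0 without shAnxa2-CTRL replicate 2.

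Of 801 alternative fold changes of the 9 genes, 779 kept their call or lack of one, 14 lost the call, 8 gained it and 0 reversed a called value. The losses and gains fell on 6 of 45 values, given with the genes concerned, and their cause was not tested. Among the 779 were 36 values not called either way that changed sign. Of other named genes, 5 changed call when 1 library was left out. Among the genes most like Trem1, Trem2 and Tyrobp, Spearman's rho kept 0, 3 and 2 of 5.

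The replicate number as a block gave 7355, 6373, 6871, 7890 and 8114 genes called in the 5 comparisons and changed no call count by over 1.5 times. Pairs of the same number had correlations of deviations of −0.050 to 0.132, and others −0.096 to 0.083, so the numbers were not taken as pairs. Low counts limited the precision of several genes, with 31 to 78 counts per library for Hcst and 4 to 26 for Treml1.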
